A study of Mus musculus with 3 samples.

Results

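The genes described here are 2 insulin-like growth factors (Igf1 and Igf2), their receptors (Igf1r and Igf2r) and 6 binding proteins (Igfbp2 to Igfbp7), measured in Meis1-EGFP cells of the fetal mouse kidney. They were chosen by name, with earlier results of these data known. Every probe set annotated to 1 symbol among these 10 was taken. This gave 28 probe sets of 34945 with 1 symbol and 10 genes of 18193. A probe set is a group of short probes read together as 1 value, and a gene with several probe sets took the value of its brightest. The series holds 3 arrays of 1 group. Each array came from a pool of about 20 kidneys of CD-1 embryos at E15.5 (Theiler stage 23) that carried the transgene Tg(Meis1-EGFP)FO156Gsat, in which control elements of Meis1 drive a green fluorescent protein. Cells were freed with trypsin and the green cells were sorted, so every array holds cells gated on the reporter. No cells sorted as negative and no unsorted kidney were measured for comparison, and the purity of the sort is not given in the labels. Whether the pools were of separate litters is not stated in the labels, so the p-values below reflect the spread of these 3 arrays alone, and that spread may be technical.

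IGF1 and IGF2 are small secreted hormones related to insulin. Both act through IGF1R, a receptor tyrosine kinase that signals through IRS adaptors to PI3K and Akt and promotes growth and survival, whereas IGF2R carries IGF2 into the cell for breakdown and also sorts lysosomal enzymes. The binding proteins hold IGFs outside the cell and can lengthen their life in tissue, keep them from the receptor or release them when cut by proteases. IGF2 is a main growth factor of the fetus, and mesenchyme is a known source of it in embryonic organs.

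With no second group, the question each gene allows is whether its signal lay above the background of its array. That level was the 95th percentile of 71 chemosensory receptor genes, which are made in sensory neurons, and stood at signals of 136, 186 and 169 on replicates 1, 2 and 3. The distance above background is the log2 signal minus the log2 level, averaged over the arrays and tested with limma (one-sided, Benjamini-Hochberg adjustment over all genes or all probe sets). Limma draws each variance toward a value pooled over all genes or probe sets, so an SE is not that gene's spread alone. Arrays were scaled by the authors to 1 trimmed mean (1500.01 on each), and log2 signals of genes above background correlated between arrays at Pearson's r of 0.987 to 0.989 across genes, which are not independent replicates. Control probe sets at the 3' end of a transcript were brighter than those at its 5' end on every array, by 5.00 to 5.39 log2 units for Gapdh and by 3.04 to 3.40 for Actb. The label of the source, nephrogenic interstitium, was set beside marker lists, which were chosen with earlier results of these data known. All 10 stromal markers were above background, among them Foxd1 and Meis1 (7.46 ± 0.21 and 6.83 ± 0.21 log2 units, SE, n = 3). Control elements of Meis1 drive the sorted reporter, so its own signal is not a check independent of the sort. The series title calls the cells peripheral blastema, and 6 of 8 cap mesenchyme markers were above as well. Of these Gdnf lay at 7.36 ± 0.20 log2 units, Sall1 at 6.11 ± 0.20, Itga8 at 5.46 ± 0.24, Eya1 at 3.46 ± 0.27, Meox1 at 2.58 ± 0.21 and Six2 at 1.85 ± 0.21, while Cited1 (-4.21 ± 0.19) and Osr1 (-3.14 ± 0.37) were not. Of all genes tested 57.3% were above background, and the counts that follow are read against that share. Markers above background numbered 3 of 7 for ureteric bud, 2 of 6 for early nephron, 2 of 4 for podocytes, 0 of 6 for proximal tubule, 4 of 6 for endothelium, 1 of 6 for macrophages and leukocytes, 1 of 5 for erythroid cells, 2 of 6 for smooth muscle and 3 of 5 for neural cells. Of the ureteric bud list, the epithelial marker Epcam lay at 4.12 ± 0.24 log2 units, Wnt11 at 2.05 ± 0.23 and Calb1 at 1.63 ± 0.28. In that list Ret (-0.35 ± 0.25), Wnt9b (-0.14 ± 0.22), Gata3 (0.085 ± 0.36) and Krt8 (-0.265 ± 0.39) were not above. The endothelial markers Tek and Cdh5 lay at 2.85 ± 0.20 and 1.30 ± 0.22, while Pecam1 (-1.65 ± 0.72) and Flt1 (-0.68 ± 0.25) were not above. With lists of this size the counts do not show whether a cell type was present. The part of such cells in the IGF signals was not tested, and in a bulk sample fewer cells of a type and less RNA per cell cannot be told apart.

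All 10 IGF genes were above background in their brightest probe set, where 57.3% of all genes tested were. Their distances ran from 2.49 to 8.60 log2 units with a median of 6.37, against a median of 1.51 over all genes. The 10 genes were chosen with earlier results of these data known, so this count and median describe them and test nothing. Igfbp1, a further binding protein, was not among them and was not above background (-3.08 ± 0.49). Taking the brightest probe set favours genes that have several. The 10 IGF genes had 28 probe sets, where the 18193 genes had 34945. Of the 28 probe sets, 24 were above background, where 48.6% of all probe sets tested were. Probe sets of 1 gene share their target and are not replicates, and because probe sets differ in affinity the signals give no order of abundance among these genes.

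**Figure D1:**
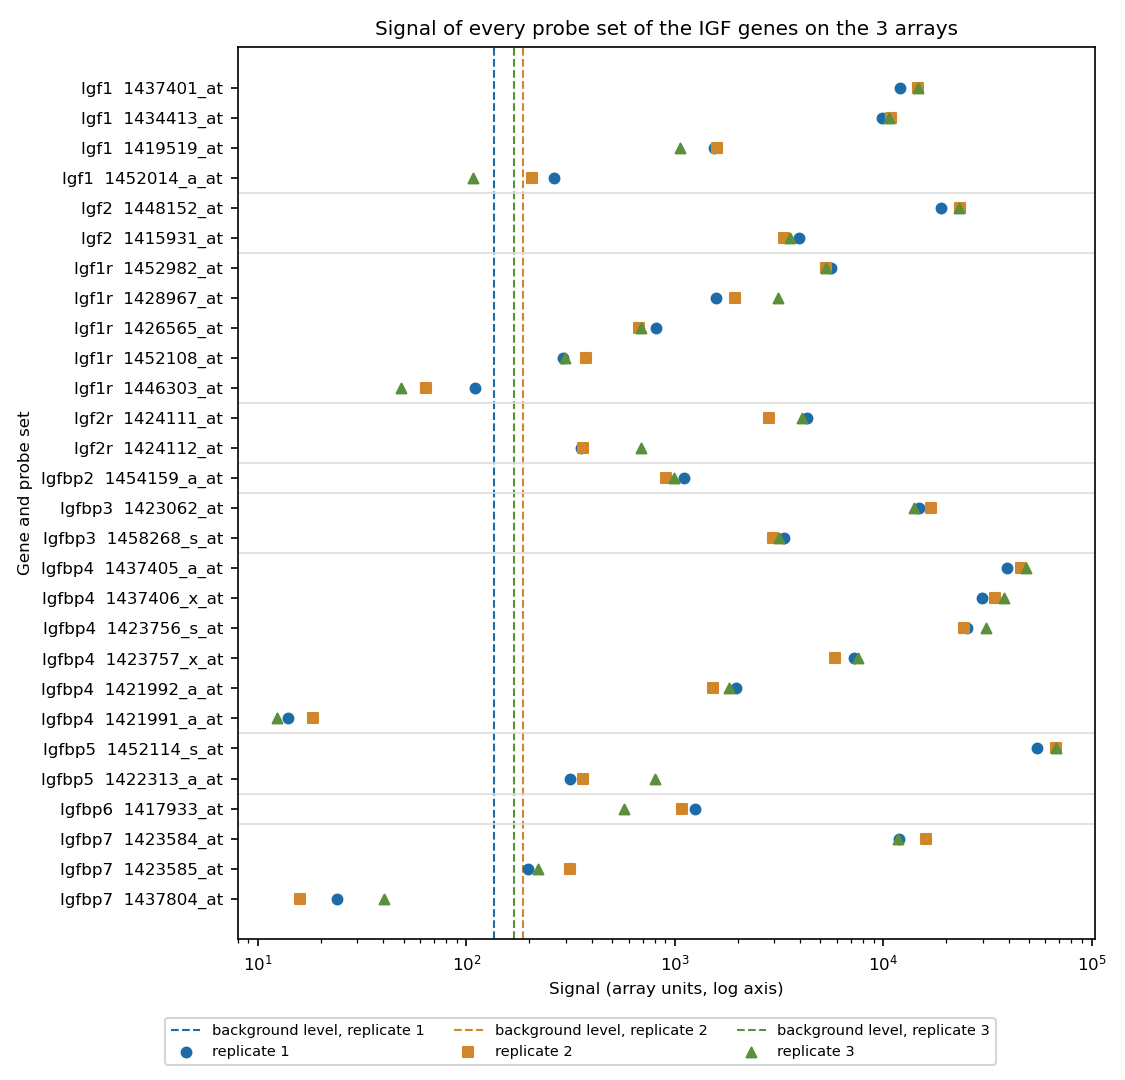
Signal (log axis, array units) of each of the 28 probe sets on the 3 arrays, with dashed lines at the background level of each array (136, 186 and 169). Of these probe sets, 24 lie to the right of the lines on all 3 arrays, and dim and bright probe sets occur within Igf1, Igf1r, Igfbp4, Igfbp5 and Igfbp7.

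Both ligands were detected. Igf2, a fetal growth factor that is expressed from the paternal allele, gave signals of 18936, 23332 and 23024 in replicates 1, 2 and 3 of probe set 1448152_at. Replicate 1 was the lowest and all arrays were far above their level, by 7.06 ± 0.19 log2 units on average (SE, n = 3; 133-fold; limma adjusted p = 1.04e-06). The second Igf2 probe set, 1415931_at, read 3953, 3350 and 3582 and lay 4.48 ± 0.24 log2 units above background (limma adjusted p = 1.65e-05). Both probe sets thus placed Igf2 above background on every array.

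Igf1, a growth factor that tissues also make locally, was bright in 1437401_at (12019, 14601 and 14677). It lay 6.40 ± 0.20 log2 units above the level (SE, n = 3; 84.4-fold; limma adjusted p = 1.04e-06). Probe set 1434413_at was close to it on all arrays, at 9890, 10891 and 10628 (6.01 ± 0.21 log2 units above). The other probe sets of Igf1 were dimmer and were lowest in replicate 3. Probe set 1419519_at read 1541, 1603 and 1057 (3.08 ± 0.25 log2 units above background). Probe set 1452014_a_at read 265, 206 and 108, above the level in replicates 1 and 2 and below it in replicate 3. Its distance of 0.15 ± 0.35 log2 units did not pass the test (limma adjusted p = 0.627), and its value was below 0 at the 99th percentile (-0.32), with the tissue-restricted level (-0.52) and without replicate 1 (-0.25). Thus 3 of 4 Igf1 probe sets were above background.

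Igf1r, the signalling receptor for both ligands, had 4 of 5 probe sets above background. The brightest, 1452982_at, read 5585, 5299 and 5305, with the arrays within 1.05-fold of each other, and lay 5.05 ± 0.21 log2 units above the level (SE, n = 3; 33.2-fold; limma adjusted p = 2.02e-06). Probe set 1428967_at read 1568, 1953 and 3139, highest in replicate 3 by a clear gap (3.71 ± 0.26 log2 units above). Lower still were 1426565_at, at 812, 676 and 685 (2.15 ± 0.24), and 1452108_at, at 292, 375 and 299 (0.98 ± 0.21; limma adjusted p = 0.00548). The call of 1452108_at was lost at the 99th percentile of the receptor genes (0.50) and with a level taken from genes restricted to other tissues (0.31). Probe set 1446303_at stayed below the level on every array, at 110, 64.3 and 48.5 (-1.21 ± 0.35).

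Igf2r, the receptor that clears IGF2 and is expressed from the maternal allele in mouse, read 4297, 2835 and 4096 in 1424111_at. Replicate 2 was the lowest, and the mean distance was 4.50 ± 0.27 log2 units (SE, n = 3; 22.7-fold; limma adjusted p = 7.25e-06). Its second probe set, 1424112_at, read 356, 365 and 686, with replicate 3 the highest, and also passed the test (1.46 ± 0.28 log2 units; limma adjusted p = 0.00338). In replicate 3 the brighter probe set was near replicate 1 while the dimmer was 1.93-fold above it, so the probe sets did not follow the same order over the arrays. One further probe set is annotated to both Igf2r and Airn, the RNA transcribed antisense through Igf2r, and was not used.

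Among the binding proteins, Igfbp5, which binds both IGFs and also attaches to extracellular matrix, had signals of 54813, 67611 and 67206 in 1452114_s_at. That probe set lay 8.60 ± 0.20 log2 units above the level (SE, n = 3; 387-fold; limma adjusted p = 1.04e-06). The second, 1422313_a_at, read 313, 364 and 805, again with replicate 3 the highest, and lay 1.47 ± 0.32 log2 units above (limma adjusted p = 0.00575). The suffix _s_at marks probe sets that can match more than 1 transcript. Without probe sets of this and the _x_at kind, the Igfbp5 value rested on the dimmer probe set and was 1.47 log2 units (2.77-fold), still above background.

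Igfbp4, a binding protein that the protease PAPP-A cuts to free IGF, had 5 of 6 probe sets above background. The brightest, 1437405_a_at, read 39160, 45859 and 48257 and lay 8.09 ± 0.20 log2 units above the level (SE, n = 3; 272-fold; limma adjusted p = 1.04e-06). Probe sets 1437406_x_at (29631, 34487 and 37929) and 1423756_s_at (25319, 24506 and 31200) were bright on all arrays, at 7.70 ± 0.21 and 7.37 ± 0.23 log2 units. Next came 1423757_x_at, at 7223, 5873 and 7565 (5.40 ± 0.24), and 1421992_a_at, at 1959, 1522 and 1822 (3.44 ± 0.25). Probe set 1421991_a_at gave 13.95, 18.40 and 12.29, far below the level on every array (-3.47 ± 0.22). The Igfbp4 probe sets therefore ran from -3.47 to 8.09 log2 units around the level.

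Igfbp3, the main IGF carrier of adult serum, read 14786, 16888 and 14068 in 1423062_at a distance of 6.55 ± 0.20 log2 units (SE, n = 3; 93.5-fold above background; limma adjusted p = 1.04e-06). Its second probe set, 1458268_s_at, read 3349, 2958 and 3156 and lay 4.28 ± 0.23 above, so both were detected on all arrays. Igfbp7, a secreted relative that binds IGFs weakly, read 11849, 16119 and 11770 in 1423584_at, with replicate 2 the highest (6.33 ± 0.20 log2 units; 80.6-fold; limma adjusted p = 1.07e-06). Its other probe sets were near or below background. Probe set 1423585_at read 197, 313 and 221 and passed narrowly (0.56 ± 0.21; limma adjusted p = 0.0464). That call was lost when replicate 1, 2 or 3 was left out (0.57, 0.46 and 0.64 log2 units), at the 99th percentile (0.08) and without _x_at and _s_at probe sets (0.56, limma adjusted p = 0.051), and the value was below background with the level of tissue-restricted genes (-0.11). Probe set 1437804_at read 24.01, 15.89 and 40.19, below the level on every array (-2.71 ± 0.34).

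The remaining binding proteins had 1 probe set each. Igfbp2, a binding protein abundant in many fetal tissues, read 1105, 906 and 996 in 1454159_a_at, close together on the arrays. It lay 2.62 ± 0.23 log2 units above the level (SE, n = 3; 6.15-fold; limma adjusted p = 4.90e-05). Igfbp6, which prefers IGF2 over IGF1, read 1251, 1077 and 569 in 1417933_at, with replicate 3 the lowest. It lay 2.49 ± 0.31 log2 units above background (5.63-fold; limma adjusted p = 0.000289), between 2.14 without replicate 1 and 2.87 without replicate 3.

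How far a gene lay above background depended on how its probe sets were combined. With the mean log2 signal over all probe sets of each gene, the 10 genes still passed the test, where 50.4% of all genes did. The distance was 4.12 log2 units for Igf1, 5.97 for Igf2, 2.34 for Igf1r and 3.18 for Igf2r. Among binding proteins it was 5.62 for Igfbp3, 4.96 for Igfbp4, 5.24 for Igfbp5 and 1.60 for Igfbp7. These 8 values differ from those of the brightest probe sets by over 1.5-fold on the linear scale, and Igfbp2 and Igfbp6, with 1 probe set each, moved less. Where each probe set lies along its transcript was not used here, and the part of the 3' to 5' ratios above in the differences between probe sets was not tested.

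**Figure D2:**
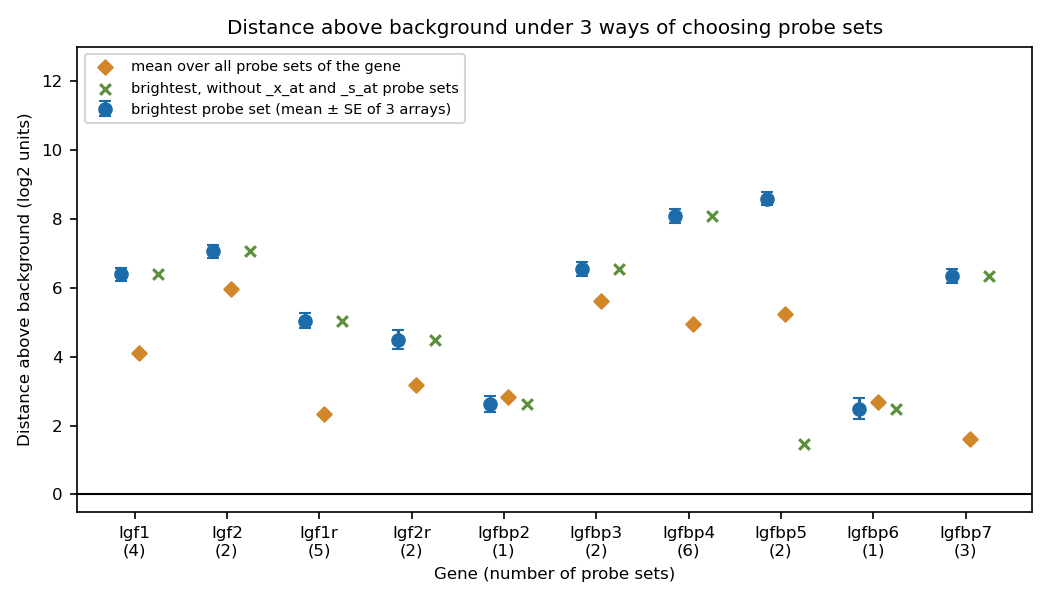
Distance above background (log2 units) of each IGF gene, with the number of its probe sets in parentheses. Circles are the brightest probe set (mean ± SE of 3 arrays), diamonds the mean over all probe sets, and crosses the brightest after probe sets ending in _x_at or _s_at were left out; Igfbp5 falls from 8.60 to 1.47 in that last setting, and all values stay above 0.

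The median spread of the IGF genes between arrays was near that of all detected genes, which were not matched to them for signal. After each array was centred on its median, the SD of log2 signal over the 3 arrays had a median of 0.25 over the 10 genes, against 0.27 over the 10422 genes above background. It ran from 0.07 for Igfbp4 to 0.79 for Igfbp6. Without centring, the medians were 0.17 for both sets, and with quantile normalization 0.13 and 0.16. Igfbp6 had the largest SD of the 10 in all 3 settings, while the smallest belonged to Igf1r in the settings other than median centring.

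The order of the arrays was read from signals that were not centred. Of the 24 probe sets above background, the highest array was replicate 1, 2 or 3 in 8 cases each. The lowest was replicate 1 in 11, replicate 2 in 9 and replicate 3 in 4. These counts also carry differences between whole arrays, whose median signals were 143, 162 and 187. Distances from each array's own level can give another order. Igf2 1448152_at was lowest in replicate 1 by signal but highest there by distance (7.12, 6.97 and 7.09 log2 units). The widest ranges of signal among the 24 probe sets were 2.57-fold for Igfbp5 1422313_a_at, 2.20-fold for Igfbp6 and 2.00-fold for Igf1r 1428967_at. In each of these replicate 3 stood apart, as the highest array for Igfbp5 and Igf1r and the lowest for Igfbp6. Bright probe sets of the same genes varied less, at 1.23-fold for Igfbp5 1452114_s_at and 1.05-fold for Igf1r 1452982_at. With 3 arrays of 1 group, no correlation across arrays was computed and no genes of like pattern were sought.

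**Figure D3:**
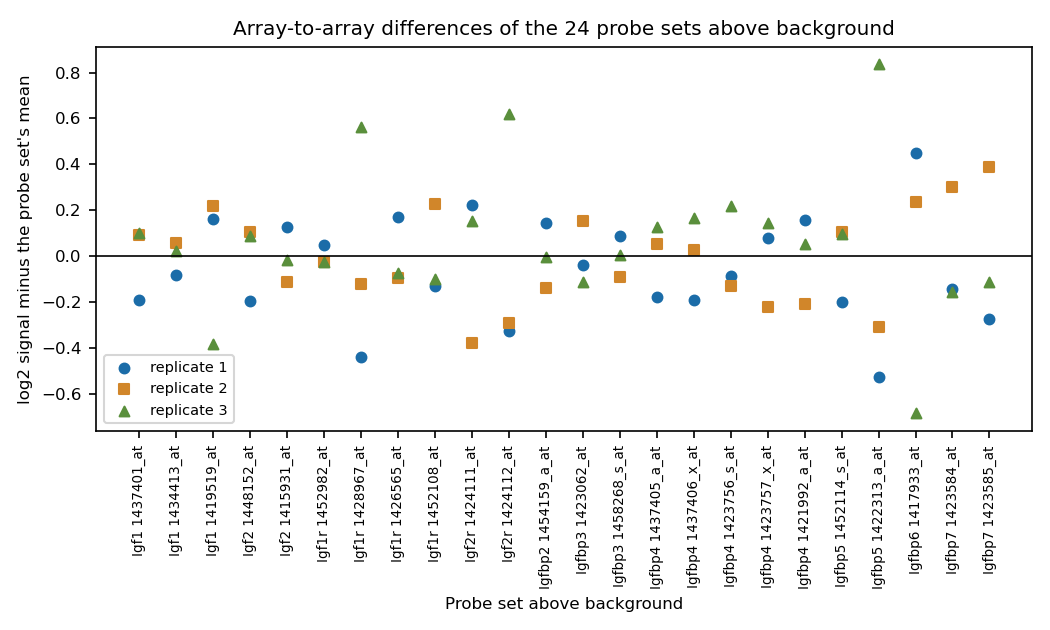
The log2 signal of each of the 24 probe sets above background on each array, minus that probe set's mean over the 3 arrays. The arrays were not centred. Most points lie close to 0. Replicate 3 lies apart for Igfbp5 1422313_a_at, Igf2r 1424112_at, Igf1r 1428967_at and Igfbp6 1417933_at, and less far for Igf1 1419519_at.

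Other genes of the pathway were read from 6 lists. Of their 53 genes, 47 had a value and 38 of those were above background (80.9%, where 57.3% of all genes were), with a median distance of 3.26 log2 units against 1.51 over all genes. The remaining 6 genes were not analysed here.

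In the wider IGF and insulin family 1 of 6 measured genes was above background. That gene was Insr, the insulin receptor, which can also bind IGF2, with signals of 5228, 5967 and 5926 (5.13 ± 0.20 log2 units, SE, n = 3) in 1 of 3 probe sets (2.08 with the mean over probe sets). The liver binding protein Igfbp1 lay at -3.08 ± 0.49, Igfals, which stabilises IGF in serum, at -0.63 ± 0.51 (0.17 without replicate 2), and Igfbpl1 at -2.54 ± 0.39. The insulin gene Ins2 lay at -0.25 ± 0.20 and the insulin receptor relative Insrr at -1.61 ± 0.28. Because a probe set can fail, a value below the level leaves it unknown whether the transcript was present.

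Proteases that cut binding proteins, with the stanniocalcins that inhibit PAPP-A, were above background in 7 of 8 cases. Pappa, which encodes PAPP-A, read 1446, 2606 and 1878 (3.56 ± 0.21 log2 units, SE, n = 3) in 1 of its 3 probe sets, while its relative Pappa2 was not above (-1.07 ± 0.33). The metalloproteases Adam9, Adamts1 and Adam12 lay at 5.76 ± 0.21, 5.54 ± 0.22 and 3.38 ± 0.19, and the serine protease Htra1 at 1.45 ± 0.22. The inhibitors Stc1 and Stc2 lay at 2.83 ± 0.22 and 0.87 ± 0.25 (limma adjusted p = 0.0127 for Stc2). With the mean over probe sets Pappa lay at 0.82 and Adam12 at 1.27, and Stc1 no longer passed (0.23). Stc2 lost it in that setting (0.47), at the 99th percentile (0.39) and with the tissue-restricted level (0.20).

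Both measured genes for proteins that bind Igf2 mRNA were above background. Igf2bp3 read 16108, 19681 and 18495 (6.79 ± 0.20 log2 units, SE, n = 3) and Igf2bp1 1865, 1386 and 1041 (3.10 ± 0.28), with 5 of 6 and 4 of 4 probe sets above. The brightest Igf2bp3 probe set ends in _x_at. Without such probe sets Igf2bp3 lay at 5.53, and with the mean over probe sets Igf2bp3 lay at 4.25 and Igf2bp1 at 2.26. For processing of pro-IGF2 and the mannose 6-phosphate route that IGF2R shares, 5 of 6 genes were above. The proprotein convertases Furin and Pcsk6 lay at 1.68 ± 0.22 and 1.89 ± 0.21, the small mannose 6-phosphate receptor M6pr at 6.66 ± 0.20 and the phosphotransferase subunit Gnptab at 2.74 ± 0.23. Nagpa, the uncovering enzyme, passed narrowly (0.60 ± 0.22; limma adjusted p = 0.0337) and Gnptg did not pass (-0.44 ± 0.26). With the mean over probe sets M6pr lay at 5.10 and Gnptab at 1.39. The Nagpa call was lost without replicate 1 (0.44, limma adjusted p = 0.0837) or 3 (0.60, adjusted p = 0.175) and at the 99th percentile (0.12), and its value was below background with the mean over probe sets (-0.94) and the tissue-restricted level (-0.07).

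Receptor adaptors were above background in 8 of 9 cases. The docking protein Irs1 lay at 6.69 ± 0.20 log2 units (15779, 17000 and 17555), Irs4 at 1.27 ± 0.22, Shc1 at 3.24 ± 0.22 and Grb2 at 3.24 ± 0.23 (SE, n = 3). Irs2, the other main docking protein, read 13.1, 10.6 and 13.3 and was not above (-3.72 ± 0.23; 1 probe set). Irs4 lost its call with the tissue-restricted level (0.60) and lay below background with the mean over probe sets (-1.18). Grb14 lay at 3.75 ± 0.23 in 1 of its 2 probe sets and also fell below background with that mean. Of the PI3K, Akt and mTOR genes 15 of 16 were above background. Among the 15, Akt2 lay at 3.65 ± 0.28 in 1 of its 3 probe sets, which ends in _s_at. Without _x_at and _s_at probe sets Akt2 lay at 0.52 and lost its call (limma adjusted p = 0.0648). The catalytic subunit Pik3ca lay at 5.80 ± 0.22, the regulatory subunits Pik3r1 and Pik3r2 at 6.08 ± 0.20 and 1.99 ± 0.20, and the kinase Pdpk1, which activates Akt, at 4.03 ± 0.24. The second catalytic subunit, Pik3cb, did not pass (0.14 ± 0.21; limma adjusted p = 0.452), and its value was below 0 at the 99th percentile (-0.34) and with the tissue-restricted level (-0.54). With the mean over probe sets Shc1 lay at 2.13, Pik3ca at 3.64, Pik3r1 at 3.62 and Pdpk1 at 2.03.

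**Figure D4:**
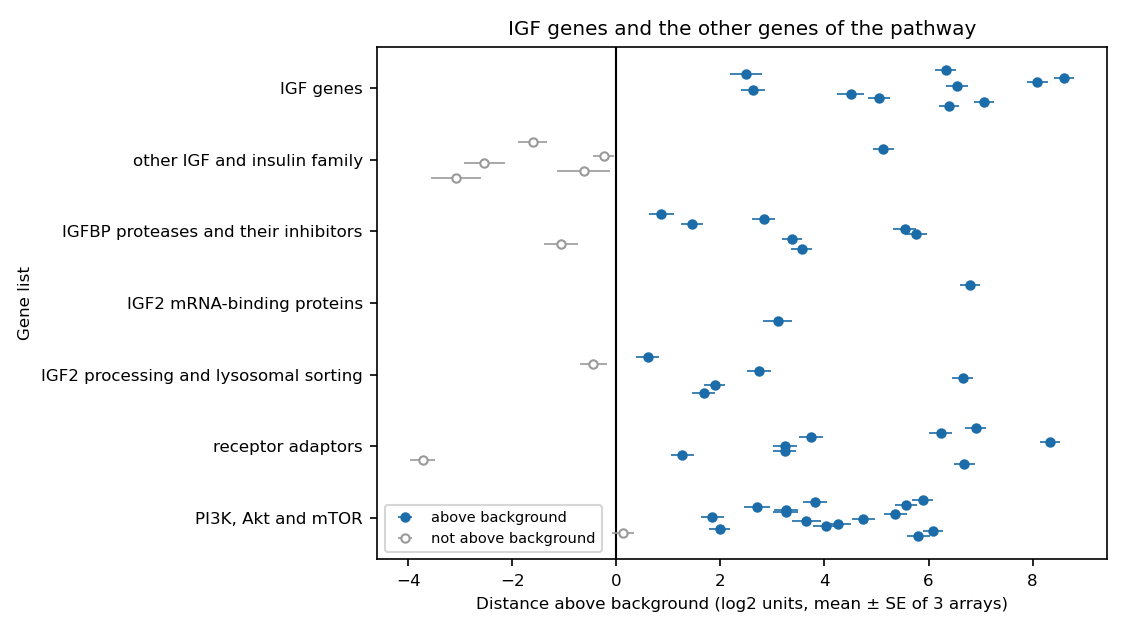
Distance above background (log2 units, mean ± SE of 3 arrays) of the 10 IGF genes and of the measured genes of 6 pathway lists; filled circles passed the test and open circles did not. The IGF genes all lie at or above 2.49, and in the wider IGF and insulin family Insr alone lies above background.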

How the data were processed

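RNA of sorted Meis1-EGFP cells was amplified in 2 rounds, biotin-labelled and hybridised to 1-colour arrays, per the labels' protocols. The deposited values are linear intensity values of 45101 probe sets. The submitters' processing notes name GCOS; for its version and settings, the sources used here give nothing. All signals were above 0, so log2 was taken with no pseudocount. Control probe sets (64) and those with several symbols (932) or none (9160) were set aside. Symbols came from the platform annotation, and Entrez IDs of the 10 genes matched RefSeq (GRCm38.p6) with no change of symbol. Distances were tested with limma 3.58.1 (lmFit with an intercept, eBayes; threshold 0.05) in R 4.3.3, separately over genes and over probe sets. The SEs are moderated and include the spread of the background levels. The script was checked on simulated data.

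The members, lists and tests were chosen with earlier results of these data known. Named are all members with every probe set, all measured genes of lists of at most 8 genes, and in longer pathway lists the first 4 above and 2 not above background. Grb14 and Akt2 are also named, because each lost its call in an alternative. Marker lists are given mainly as counts. The number of arrays limits the precision. Alternatives changed the background level, scaling, filter, probe sets, call rule or arrays.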

Additional observations from a re-analysis of the deposited data

How the results depend on the processing

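In all 13 alternatives the 10 IGF genes stayed above background, with a largest limma adjusted p of 0.00643 (Igfbp6). Probe sets above background numbered 24 of 28 with all arrays, 23 without replicate 1, 2 or 3 in turn, 22 at the 99th percentile or with the tissue-restricted level, and 18 of 23 without _x_at and _s_at probe sets. The tissue-restricted level lowered the distance of every IGF gene (Igf1 from 6.40 to 5.73 log2 units). Pathway genes above background ranged from 32 of 47 (mean over probe sets) to 38, and from 37 to 38 when 1 array was left out.

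Of the IGF probe sets and pathway genes called above background, those that crossed to below it were 1423585_at (-0.11) and Nagpa (-0.07) with the tissue-restricted level, and Nagpa (-0.94), Irs4 (-1.18) and Grb14 (-0.044) with the mean over probe sets, which brings in dimmer probe sets. With that mean 3 pathway genes also lost their call with values above 0, Stc1 and Stc2 among them. Values that were not called also changed sign: 1452014_a_at at the 99th percentile (-0.32), with the tissue-restricted level (-0.52) and without replicate 1 (-0.25), Pik3cb in the first of these settings (-0.34) and the second (-0.54), Ins2 at the 90th percentile (0.11) and Igfals without replicate 2 (0.17). With 2 of the 3 arrays the fit rests on 1 residual degree of freedom per gene plus the moderated prior. No paired analysis was possible because the series has 1 group. What limits a distance near 0 is the background signal of the array, 136 to 186.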

Other observations

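Several of these genes lie next to each other among protein-coding genes in the RefSeq table (GRCm38.p6), and neighbours differed in whether and how far they were above background. Igfbp2 and Igfbp5 are adjacent, at 2.62 ± 0.23 and 8.60 ± 0.20 log2 units (SE, n = 3), although the second Igfbp5 probe set lay at 1.47 ± 0.32. Igfbp3 (6.55 ± 0.20) is adjacent to Igfbp1 (-3.08 ± 0.49), and Igf2 (7.06 ± 0.19) to Ins2 (-0.25 ± 0.20). Probe sets differ in affinity, so these are distances from background and not levels relative to each other, and no difference between neighbours was tested. The pairs were chosen after their values were seen.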
